A study of Mus musculus with 2 samples.

Results

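The genes described here encode histone-modifying enzymes and close partners other than the dedicated H3K36 enzymes, although a few, such as *Kdm4b*, also act on H3K36 or mainly on proteins that are not histones. The 60 genes were fixed by name, with earlier results of these data known. They comprised lysine methyltransferases and demethylases, subunits of Polycomb repressive complex 2 (PRC2), acetyltransferases and deacetylases. Their H3K36me2 peaks were all entries of the 2 deposited peak lists whose nearest gene, by the authors' annotation, was one of the 60, and the genes without a peak were counted as well. The lists named 18187 genes in all. H3K36me2 was mapped in colon tissue by CUT&Tag, in which an antibody bound on chromatin guides a transposase that tags the DNA around it for sequencing. The control library, 1 sample, came from *Nsd2* fl/fl mice, which carry the floxed allele without deletion, and the knockout library, 1 sample, from *Nsd2* ΔIE mice, in which Cre under the Villin promoter removes *Nsd2* from the intestinal epithelium, so that the other cells of the colon keep the gene. By the study's methods the animals were male littermates on a C57BL/6J background, 7 to 8 weeks old at the start, and both genotypes were fed a high-fat cholesterol diet (HFCD), with 18 weeks stated in the methods and 16 weeks in the deposited design text. The number of animals behind a library is not given in the sources used here. With 1 library per genotype, no difference between the genotypes has a replicate check, and no test between them was made.

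Histone modifiers work as writers, which add methyl or acetyl groups, and erasers, which remove them. H3K36me2, the product of NSD2, spreads over broad stretches of active genes and the regions between them, and a nucleosome that carries it is a poor substrate for PRC2, the writer of H3K27 methylation. In the intestinal epithelium, PRC2, the lysine demethylases and the deacetylases are known for their part in the balance between crypt progenitors and differentiated cells. A peak over one of these genes says that its own chromatin carried the mark, and says nothing by itself of its transcript or protein.

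The deleted gene itself, *Nsd2*, had 1 listed peak of 3766 bp in the *Nsd2* ΔIE library and none in the control, so these lists do not show the deletion. Markers of the cell types of the colon were read from the same lists. Of 8 epithelial markers, 4 had a control peak and 7 a peak in *Nsd2* ΔIE. Most covered over both were *Chga*, of enteroendocrine cells, with 19548 bp and 20703 bp, and *Vil1*, of the brush border, with 13184 bp and 23472 bp. *Muc2*, the secreted mucin of goblet cells, had 9018 bp and 15304 bp, the intestinal transcription factor *Cdx1* had 10071 bp and 3542 bp, and *Cdx2* had none in either library. Of 5 immune markers, none and 1 had a peak, of 6 stromal and muscle markers 1 and 2, of 2 endothelial markers 2 and 2, and of 4 markers of enteric neurons and glia 1 and 2. *Myh11*, the smooth muscle myosin heavy chain, was covered over 30046 bp in the control and 7771 bp in *Nsd2* ΔIE. The other stromal and muscle marker with a peak, *Des*, went the other way, with none in the control and 2830 bp in *Nsd2* ΔIE. The immune marker *Ptprc* likewise had none in the control and 5871 bp in *Nsd2* ΔIE. A mixed tissue gives the sum of its cell types, so that more cells with a mark and more of the mark per cell cannot be told apart, and the part of cell composition in the values below was not tested.

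Of the 60 histone modifiers, 27 (45%, 95% Wilson interval 33.1% to 57.5%) had a control peak and 29 (48.3%, 36.2% to 60.7%) a knockout peak. Over the 21900 protein-coding genes of a RefSeq gene table, the shares were 30.9% and 32.9%. In both libraries 17 had a peak (28.3%, 18.5% to 40.8%, against 20.4% of protein-coding genes), in *Nsd2* fl/fl alone 10 (16.7%, 9.31% to 28%, against 10.4%), in *Nsd2* ΔIE alone 12 (20%, 11.8% to 31.8%, against 12.5%), and 21 had none (35%, 24.2% to 47.6%, against 56.6%). The intervals cover counting error only. The share with a peak in each library lay above that of protein-coding genes, while the intervals of the shares in both libraries and in 1 library alone held the protein-coding values. Since the 60 genes were chosen with earlier results of these data known, the intervals cannot show an excess over protein-coding genes, and none is read from them. The 39 genes with a peak were also long, with a median span of 42070 bp against 21237 bp for the 9494 protein-coding genes with a peak, and 14 of them lay among the longest 25%, where the mean number of *Nsd2* fl/fl peaks per gene was 1.79 against 0.842 among the shortest 25%. The part of length in the shares was not tested.

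**Figure D1:**
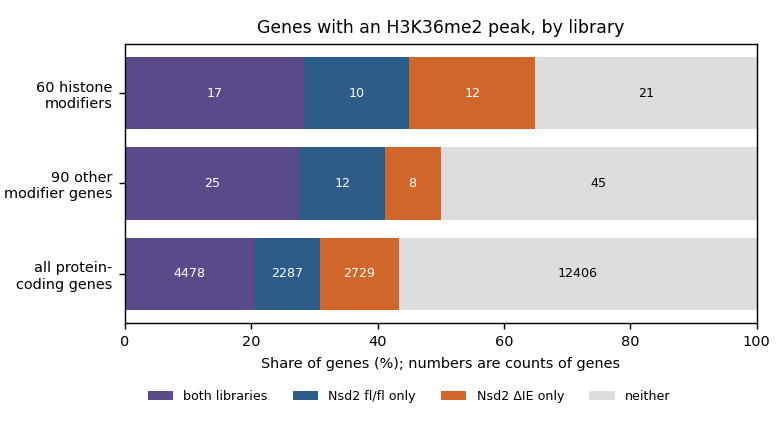
Share of genes (x axis, percent) with an H3K36me2 peak in both libraries, in *Nsd2* fl/fl only, in *Nsd2* ΔIE only or in neither, for the 60 histone modifiers, 90 further histone modifier genes and the protein-coding genes, with counts of genes in the bars. The histone modifiers with no peak were 21 of 60, against 12406 of 21900 protein-coding genes.

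For each gene, the widths of its peaks were summed into a covered length, and a log2 ratio, with the knockout over the control, below -0.5 was called less length and above 0.5 more, with a gene listed in 1 library alone counted as less or more. Of the 39 genes with a peak, 20 (51.3%) had less length in *Nsd2* ΔIE and 15 (38.5%) had more, against 43.8% and 37.6% of protein-coding genes with a peak. In the 17 genes with a peak in both, 10 (58.8%) had less and 3 (17.6%) had more, against 41.8% and 18.8%, with a median log2 ratio of -0.54 against -0.32. Summed over the list, covered length went from 374738 bp in 65 peaks to 280774 bp in 71 peaks, a log2 ratio of -0.42, against -0.23 over all peaks of the libraries. The direction of the counts depended on the scale. After the log2 ratios were centred on the median of all genes, 17 genes had less and 17 more, and by the number of peaks in place of their length 16 had fewer and 18 more. The share of less among less and more thus went from 57.1% to 50% and 47.1%, and that of protein-coding genes moved alike, from 53.8% to 47% and 43.5%.

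**Figure D2:**
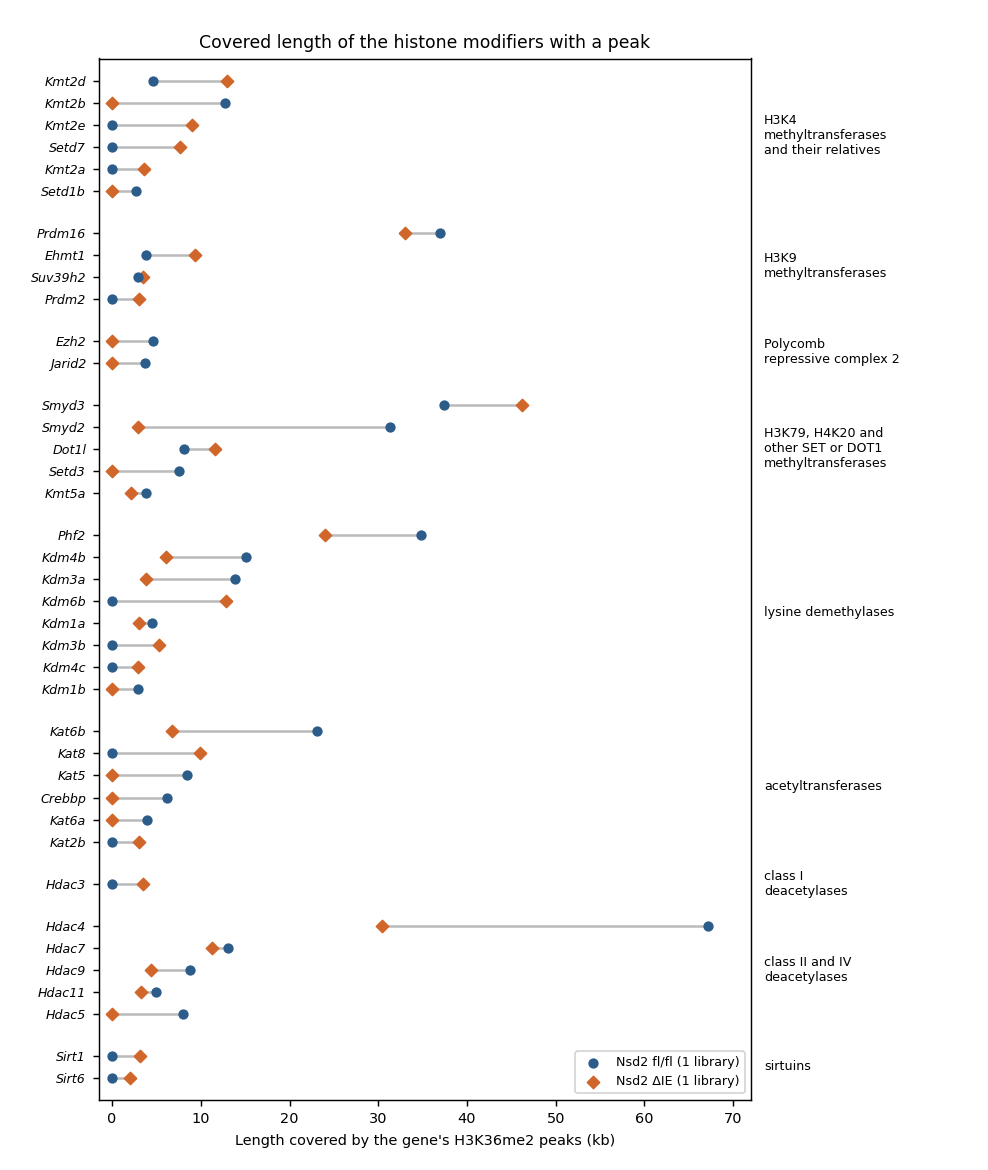
Length covered by H3K36me2 peaks (x axis, kb) of each of the 39 histone modifiers with a peak, by role, in the *Nsd2* fl/fl library (circles) and the *Nsd2* ΔIE library (diamonds), 1 library each, where a point at 0 stands for no peak. *Hdac4* (67166 bp and 30466 bp), *Smyd2* (31348 bp and 2896 bp) and *Kat6b* (23083 bp and 6767 bp) show the widest gaps.

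The promoters of these genes are rich in CpG dinucleotides. In windows of 300 bases, from 250 before to 50 after a start site, the median number of CpG was 26 in the 65 windows of the 47 histone modifiers that the RefSeq promoter table held, against 7 over all 32851 windows of the table. The GC box GGGCGG, searched on both strands, was in 67.7% of them against 35.7% of all windows, CCAAT in 36.9% against 37.4%, and TATAAA in 3.08% against 13.6%. The median CpG number was 24 in those with a promoter peak, 28.5 in those with other peaks alone and 25.5 in those with no peak at all. GGGCGG was in 72%, 65% and 65% of these windows and CCAAT in 44%, 35% and 30%. The letters are a description of the windows and say nothing of factors bound there.

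The 250 bases before the start of 4 genes are printed below, in the direction of transcription from RefSeq sequence of GRCm38.p6, with GGGCGG or its reverse complement in capitals. *Dot1l* (chr10:80754953-80755202, plus strand) and *Kmt2d* (chr15:98871206-98871455, minus strand) are shown because promoter peaks of these genes overlapped between the libraries and a window matched a listed transcript. For *Dot1l* this was the start that the control peak names, while the overlapping knockout peak names one nearby, and for *Kmt2d* the overlapping peaks belong to a start further into the gene and the printed one is that of the transcript with a promoter peak in *Nsd2* ΔIE alone. *Kdm3a* (chr6:71632687-71632936, minus strand) and *Kat5* (chr19:5609745-5609994, minus strand), chosen after their values were seen, had a broad peak over the start in *Nsd2* fl/fl and none there in *Nsd2* ΔIE.
*Dot1l*: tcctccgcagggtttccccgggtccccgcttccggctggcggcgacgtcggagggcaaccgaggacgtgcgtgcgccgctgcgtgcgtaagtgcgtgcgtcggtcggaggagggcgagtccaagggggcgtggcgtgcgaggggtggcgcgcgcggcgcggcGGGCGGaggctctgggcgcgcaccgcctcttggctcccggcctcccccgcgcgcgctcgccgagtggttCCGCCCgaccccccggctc
*Kmt2d*: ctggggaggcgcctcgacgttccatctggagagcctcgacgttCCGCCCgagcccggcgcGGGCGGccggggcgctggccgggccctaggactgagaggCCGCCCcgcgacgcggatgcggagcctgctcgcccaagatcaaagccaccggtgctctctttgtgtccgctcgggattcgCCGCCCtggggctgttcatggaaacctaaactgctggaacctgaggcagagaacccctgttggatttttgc
*Kdm3a*: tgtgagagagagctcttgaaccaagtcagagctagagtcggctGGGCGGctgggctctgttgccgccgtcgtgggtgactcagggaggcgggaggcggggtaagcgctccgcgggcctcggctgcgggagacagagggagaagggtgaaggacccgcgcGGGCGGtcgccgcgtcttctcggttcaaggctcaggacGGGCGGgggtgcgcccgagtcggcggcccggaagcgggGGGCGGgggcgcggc
*Kat5*: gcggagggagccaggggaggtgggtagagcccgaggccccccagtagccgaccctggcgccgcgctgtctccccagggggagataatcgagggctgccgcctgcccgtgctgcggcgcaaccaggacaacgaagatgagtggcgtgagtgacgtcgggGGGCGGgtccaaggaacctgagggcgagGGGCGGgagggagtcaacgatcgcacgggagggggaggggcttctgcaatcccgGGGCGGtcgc
The stretches hold 44, 26, 31 and 24 CpG. Those of the other genes with a matched window, *Kat8* and *Kmt5a*, are not printed and hold fewer, 10 and 7. In the lists, the window around the *Dot1l* start lay outside the *Nsd2* fl/fl peak, which began 339 bp into the gene, and wholly inside the *Nsd2* ΔIE peak. The *Kdm3a* and *Kat5* windows, and that of *Kmt5a*, were covered over all 300 bp in *Nsd2* fl/fl and over none in *Nsd2* ΔIE. The *Kmt2d* window was covered in neither library.

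Of the 65 histone modifier peaks in *Nsd2* fl/fl, 18 lay within 3 kb of a transcription start site (TSS), a share of 27.7% (18.3% to 39.6%) against 32.1% of all peaks of the list. In *Nsd2* ΔIE there were 16 of 71, or 22.5% (14.4% to 33.5%), against 27.9%. The intervals take the peaks as independent, although the 65 came from 27 genes and the 71 from 29, so they may be too narrow. A promoter peak was present at 15 of the 60 genes in *Nsd2* fl/fl (25% against 16.7% of protein-coding genes), at 12 in *Nsd2* ΔIE (20% against 16.3%) and at 5 in both (8.33% against 7.36%). The start is that of the transcript named for each peak. For some peaks, as in *Hdac7*, *Hdac9*, *Hdac11*, *Kdm3a* and *Kdm6b*, it lies inside the gene span and not at its 5′ end. The promoter peaks mostly lay beside the start: 8 of the 18 control peaks and 7 of the 16 knockout peaks reached over it, and the strongest stretch of the peak was within 1 kb of it in 2 and 3, at median distances of 3091 bp and 2692 bp. The other peaks lay chiefly inside genes. The share labelled 5′ UTR was 13.8% and 11.3%, against 3.49% and 2.92% of all peaks, the first intron held 13.8% and 14.1% against 7.44% and 8.0%, and the peaks of 90 further histone modifier genes, described below, lay there alike (12.1% and 8.2% at 5′ UTRs, 15.2% and 19.7% in the first intron). Distal intergenic peaks made up 10.8% and 7.04% against 18% and 20.1%. A promoter label takes precedence in the annotation, so 5′ UTR peaks lie beyond 3 kb of the named start by construction, and the 9 of *Nsd2* fl/fl were in *Smyd2*, *Kat6b*, *Dot1l*, *Ezh2*, *Hdac4* and *Kdm4b*.

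**Figure D3:**
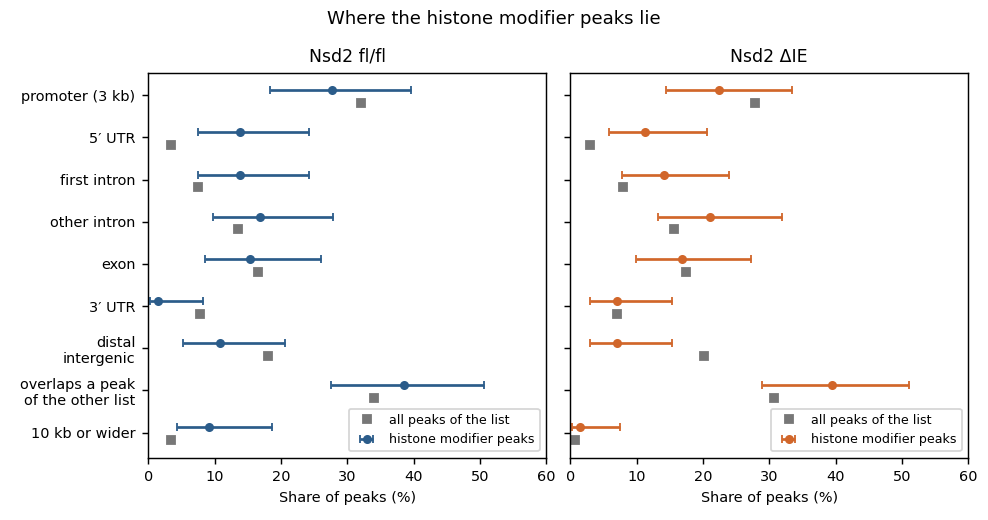
Share of peaks (x axis, percent) by genomic feature, by overlap with a peak of the other list and by width of at least 10 kb, for the peaks of the histone modifiers (coloured, with 95% Wilson intervals) and all peaks of each list (grey squares). The shares at 5′ UTRs, 13.8% and 11.3%, lie well to the right of the grey squares, and the intervals take peaks of the same gene as independent.

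Divided by width, the authors' summed signal of these peaks reached medians of 6.21 per bp (*Nsd2* fl/fl) and 6.46 per bp (*Nsd2* ΔIE), against 6.14 and 6.32 over all peaks. Signals of single peaks were not compared between the libraries, since the lists start at different limits and no scaling to depth is stated. The highest mean signals in *Nsd2* fl/fl were 9.13 per bp in *Phf2*, 8.74 in *Setd1b* and 7.93 in *Prdm16*, and in *Nsd2* ΔIE 9.77 in *Sirt6*, 9.02 in *Hdac4* and 8.86 in *Phf2*. The median widths, 4669 bp and 3599 bp, were close to the 4643 bp and 3426 bp of all peaks. At least 10 kb wide were 6 of the 65 peaks in *Nsd2* fl/fl, or 9.23% against 3.38% of all peaks: 2 in *Phf2* and 1 each in *Prdm16*, *Kmt2b*, *Hdac4* and *Kat6b*. In *Nsd2* ΔIE 1 of 71 was that wide, in *Hdac4*, or 1.41% against 0.693%. By position, 25 of the 65 peaks (38.5% against 34.1%) and 28 of the 71 (39.4% against 30.7%) overlapped a peak of the other library. Of the 31 overlapping pairs, the *Nsd2* fl/fl peak was the wider in 26, or 83.9% against 74.9% of all 7465 overlapping pairs of the lists, and the strongest stretches lay a median of 1954 bp apart, against 1956 bp.

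**Figure D4:**
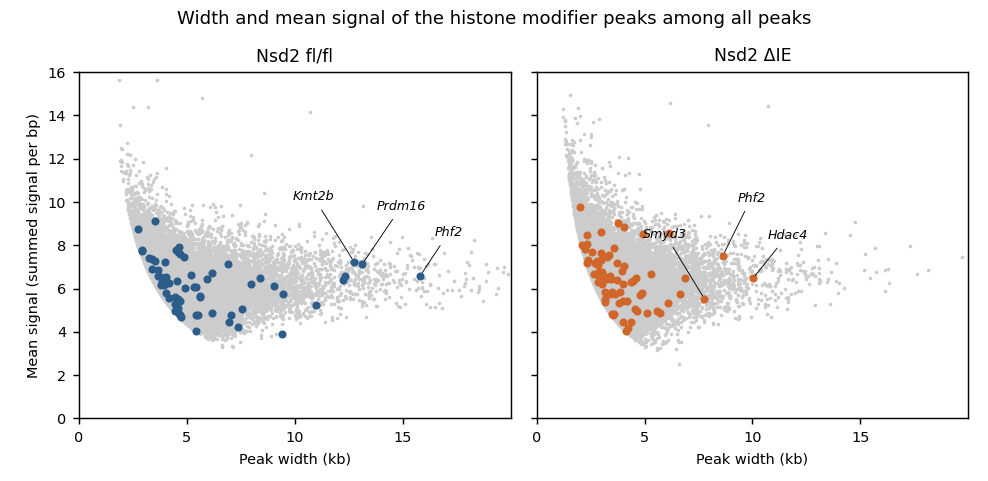
Width (x axis, kb) and mean signal (y axis, summed signal per bp) of the histone modifier peaks (coloured) among all peaks of each list (grey), with the 3 widest named. The coloured peaks reach 15813 bp in *Nsd2* fl/fl against 10025 bp in *Nsd2* ΔIE, and 49 and 20 grey peaks beyond 20 kb or 16 per bp are not drawn.

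Among the writers of H3K4 methylation and their relatives, 6 of 8 had a peak in either library, against 43.4% of protein-coding genes, 2 with less and 4 with more length in *Nsd2* ΔIE, against 43.8% and 37.6% of the protein-coding genes with a peak. *Kmt2d*, an H3K4 monomethyltransferase of enhancers, had 4566 bp in 1 control peak and 12995 bp in 2 knockout peaks, a log2 ratio of 1.51, the highest among the 17 genes. The added peak, chr15:98761740-98768613, began 473 bp after a start site. *Kmt2b*, which methylates H3K4 at CpG-rich promoters, showed the reverse: a peak of 12739 bp over its start in *Nsd2* fl/fl (chr7:30275626-30288364, 7.24 per bp, 4.23 times the lowest signal of its list) and no peak in *Nsd2* ΔIE. An *Nsd2* ΔIE peak named for its neighbour *Zbtb32* covered 1014 bp of the span of *Kmt2b* with the 3 kb before it. The paralogs *Kmt2a* and *Kmt2b* thus differed in where peaks were listed, with 3599 bp for *Kmt2a* in *Nsd2* ΔIE alone. A peak named for *Ttc36* lay in the span of *Kmt2a* in each library, so that absence of a named peak is not absence of the mark over the gene. *Kmt2e*, a relative with little known catalytic activity, had 8996 bp in 2 peaks and *Setd7*, which monomethylates H3K4 and other proteins, 7627 bp in 2 intergenic peaks, both in *Nsd2* ΔIE alone. *Setd1b* had 2721 bp in *Nsd2* fl/fl alone. *Kmt2c* and *Setd1a* had no peak.

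Among the H3K9 methyltransferases, 4 of 7 had a peak (43.4% in protein-coding genes), 2 with more length and none with less (37.6% and 43.8%). *Prdm16*, which monomethylates H3K9 and directs cell fate as a transcriptional coregulator, was covered over 36935 bp by 6 peaks in *Nsd2* fl/fl and 33011 bp by 9 peaks in *Nsd2* ΔIE (log2 ratio -0.16). All 6 control peaks and 8 of the 9 knockout peaks overlapped a peak of the other library. The widest, chr4:154467315-154480444 in *Nsd2* fl/fl with 13130 bp, faced a peak of 4923 bp in *Nsd2* ΔIE. The transcript named by the lists starts inside the gene, so peaks as far as -77.7 kb from it carry intron labels of a longer transcript. *Ehmt1*, the partner of *Ehmt2* in H3K9 dimethylation, had 3778 bp and 9321 bp, a log2 ratio of 1.3. Over its span, where a control peak was named for *Cacna1b*, 7516 bp and 7813 bp were covered (0.06). A peak inside the gene was common to both libraries, and another, 5600 bp over the start, was listed in *Nsd2* ΔIE alone. *Suv39h2*, which trimethylates H3K9 in heterochromatin, had 2940 bp at the promoter in the control and 3491 bp at the 3′ UTR in the knockout (log2 ratio 0.25, and 0.57 after centring), with no overlap. *Prdm2* had 3020 bp at its promoter in *Nsd2* ΔIE alone, while peaks named for the microRNA gene *Mir7021* lay in its span in both libraries. *Setdb1*, *Setdb2* and *Ehmt2* had no peak.

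Of the 5 PRC2 genes, *Ezh2*, the catalytic subunit, had a peak of 4567 bp, 23.0 kb after the start named for it, and *Jarid2*, an accessory subunit that helps to recruit the complex, a peak of 3653 bp, both in *Nsd2* fl/fl alone and neither at a promoter. Their signals were 1.04 and 1.1 times the lowest of the list. *Ezh1*, *Eed* and *Suz12* had no peak in either library. The 2 of 5 genes with a peak compare with 43.4% of protein-coding genes, and the 0 of 5 in *Nsd2* ΔIE, with an interval up to 43.4%, with 32.9%. A peak named for *Dtnbp1* covered 2837 bp of the span of *Jarid2* in *Nsd2* ΔIE.

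Of the other methyltransferases, 5 of 7 had a peak (43.4% in protein-coding genes), 3 with less and 1 with more length (43.8% and 37.6%). The paralogs *Smyd2* and *Smyd3* are SET and MYND domain enzymes with histone and other substrates. *Smyd2* was covered over 31348 bp by 6 peaks in *Nsd2* fl/fl and over 2896 bp by 1 peak in *Nsd2* ΔIE, a log2 ratio of -3.44, the lowest among the 17 genes. Of the 6, 4 lay along the gene and 2 before it, the furthest at -53.4 kb, and 1 overlapped the *Nsd2* ΔIE peak. *Smyd3* was covered over 37454 bp by 7 peaks in *Nsd2* fl/fl and over 46226 bp by 11 peaks in *Nsd2* ΔIE (log2 ratio 0.3), which passed the limit for more length over the gene span (0.61) and after centring (0.62). Genes with at least 11 peaks numbered 41 of 13595 in *Nsd2* ΔIE. The peaks of *Smyd3* were scattered over its long span, and 1 pair overlapped. *Dot1l*, the H3K79 methyltransferase, had 8060 bp in 2 peaks and 11626 bp in 4 (log2 ratio 0.53), of which 1 promoter peak and 2 further peaks overlapped those of *Nsd2* fl/fl. When peaks named for its neighbour *Plekhj1* were added over the span of *Dot1l* and the 3 kb before it, 22950 bp and 23144 bp were covered. *Kmt5a*, which monomethylates H4K20, had 3866 bp over its start in the control and 2082 bp in an intron in the knockout (log2 ratio -0.89). *Setd3*, an actin histidine methyltransferase, had 7553 bp at its 3′ end in *Nsd2* fl/fl alone. *Kmt5b* and *Setd5* had no peak.

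**Figure D5:**
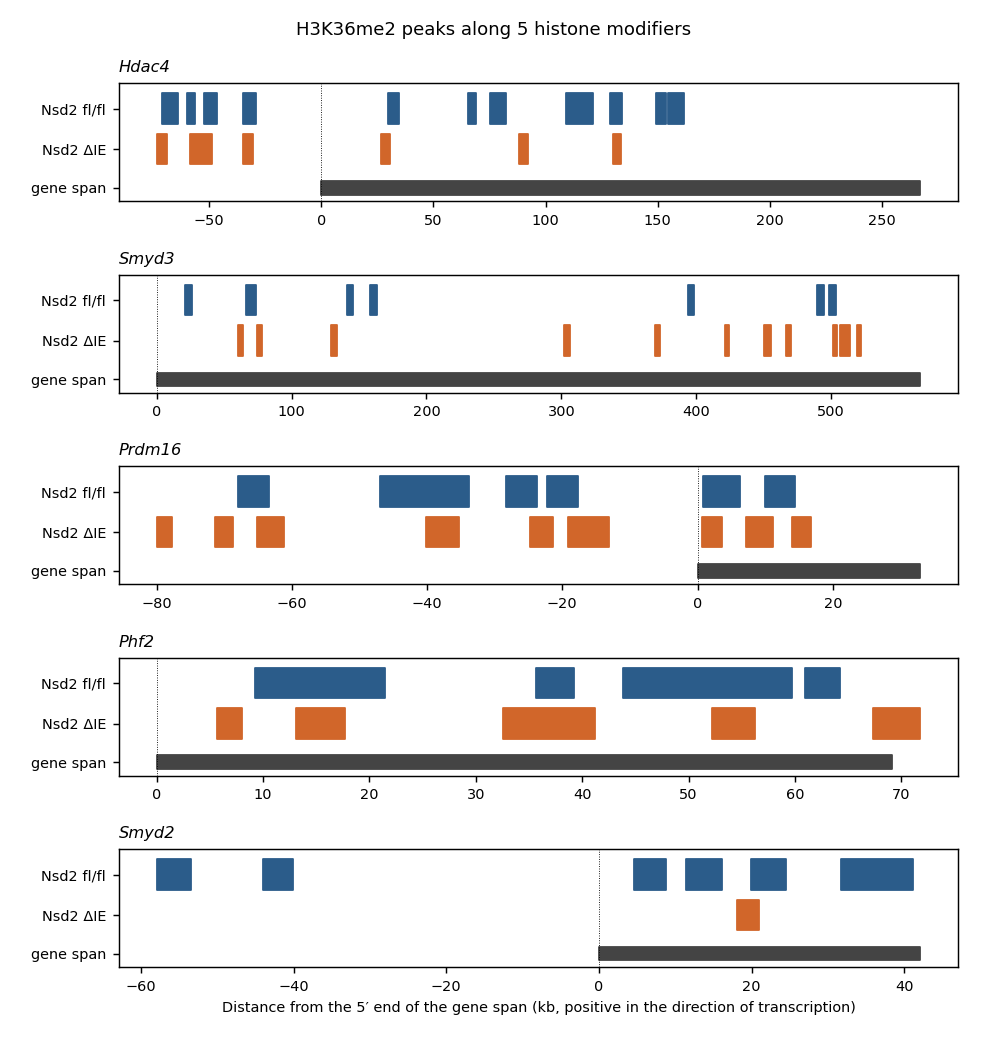
H3K36me2 peaks (blocks, to scale) of 5 histone modifiers against distance from the 5′ end of the gene span (x axis, kb, different for each gene) in *Nsd2* fl/fl and *Nsd2* ΔIE, where the grey bar is the span of the transcripts that the lists name and only peaks annotated to the gene are drawn. For *Prdm16*, all 6 *Nsd2* fl/fl blocks meet one of *Nsd2* ΔIE, for *Hdac4* 6 of 11 do, for *Phf2* 3 of 4, for *Smyd3* 1 of 7, and *Smyd2* has 6 blocks against 1.

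Of the lysine demethylases, 8 of 12 had a peak (43.4% in protein-coding genes), 5 with less and 3 with more length (43.8% and 37.6%), and the 4 with a peak in both libraries had less length in *Nsd2* ΔIE, a call made for 41.8% of such protein-coding genes. After centring, *Kdm1a* (-0.22) and *Phf2* (-0.21) no longer passed the limit. *Phf2*, which removes methyl groups from H3K9, had 34811 bp in 4 peaks and 24042 bp in 5 (log2 ratio -0.53). Its 15813 bp peak in *Nsd2* fl/fl, chr13:48964688-48980500, was the widest among the 60 genes, and an *Nsd2* ΔIE peak of 4041 bp lay inside it. *Kdm3a*, an H3K9 demethylase of metabolic genes, had 13872 bp in 2 promoter peaks in *Nsd2* fl/fl and 3812 bp in an exon, 38.5 kb from the 5′ end of the gene span, in *Nsd2* ΔIE (log2 ratio -1.86). The wider promoter peak of *Kdm3a* (9420 bp) lay over the 5′ end of the gene span, the other inside the gene, before the start of a shorter transcript. Over the span of *Kdm3a*, 7845 bp and 3812 bp were covered (log2 ratio -1.04). Its paralog *Kdm3b* had the opposite pattern, with 5297 bp at the promoter in *Nsd2* ΔIE alone. *Kdm4b*, which acts on trimethylated H3K9 and H3K36, had 15065 bp in 3 peaks and 6108 bp in 2 (log2 ratio -1.3). Most of the covered length over *Kdm4b* carried the name of another gene, *Gm32715*, with peaks of up to 18295 bp in the control and 10329 bp in the knockout, and with these the covered lengths over its span were 44381 bp and 34057 bp (log2 ratio -0.38). *Kdm4c* had 2940 bp in *Nsd2* ΔIE alone. *Kdm1a* and *Kdm1b*, the flavin-dependent H3K4 demethylases, had 4450 bp and 3068 bp (log2 ratio -0.54, no overlap) and 2908 bp in *Nsd2* fl/fl alone. *Kdm6b*, which removes H3K27 methylation and so opposes PRC2, had 12884 bp in 3 peaks in *Nsd2* ΔIE alone. Of this length, 10041 bp lay in 2 promoter peaks, both at starts of shorter listed transcripts inside the gene span. Of these, 1 overlapped an *Nsd2* fl/fl peak of 5374 bp that was named for *Gm51903*, so that stretch was marked in both. *Kdm4d*, *Kdm5a*, *Kdm5b* and *Kdm7a* had no peak.

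Of the acetyltransferases, 6 of 9 had a peak (43.4% in protein-coding genes), 4 with less and 2 with more length (43.8% and 37.6%). *Kat6b*, a MYST family enzyme, had 23083 bp in 4 peaks and 6767 bp in 2 (log2 ratio -1.77), with no overlap. The widest of them, 10965 bp at chr14:21593214-21604178, lay 12.7 kb after the start in *Nsd2* fl/fl. Its paralog *Kat6a* had 3921 bp in *Nsd2* fl/fl alone. *Crebbp*, which acetylates H3K27 at enhancers, had a promoter peak of 6159 bp in *Nsd2* fl/fl alone, and its paralog *Ep300* had none. *Kat5*, the catalytic subunit of the NuA4 complex, had a promoter peak of 8397 bp in *Nsd2* fl/fl alone, and an *Nsd2* ΔIE peak of 4454 bp inside it was named for the neighbour *Rnaseh2c*. *Kat8*, which acetylates H4K16, had 9899 bp in 2 peaks in *Nsd2* ΔIE alone, 4168 bp of it at the promoter. *Kat2b* had 3038 bp in *Nsd2* ΔIE alone. *Kat2a* and *Kat7* had no peak.

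Of the 3 class I deacetylases, 1 had a peak, of the class II and IV enzymes 5 of 6 and of the sirtuins 2 of 3, against 43.4% of protein-coding genes. *Hdac1* and *Hdac2* had no peak and *Hdac3*, a deacetylase of corepressor complexes, had 3489 bp at its promoter in *Nsd2* ΔIE alone, with peaks named for its neighbour *Rell2* in the 3 kb before its start in both libraries. Of the 5 class II and IV enzymes with a peak, 4 had less length in *Nsd2* ΔIE (43.8% in protein-coding genes) and 1 a similar length. *Hdac4*, a signal-responsive class IIa enzyme, was the most covered of the 60 genes in *Nsd2* fl/fl, with 67166 bp in 11 peaks, and had 30466 bp in 6 in *Nsd2* ΔIE (log2 ratio -1.14), where *Smyd3* and *Prdm16* had more. Genes with at least 11 peaks numbered 15 of 12462 in *Nsd2* fl/fl. A cluster of 4 *Nsd2* fl/fl peaks, at -29.3 to -63.9 kb from the start named for them, was met by 3 *Nsd2* ΔIE peaks that overlapped all 4, the widest being chr1:92171890-92181914 with 10025 bp. Along the gene itself, 7 peaks in *Nsd2* fl/fl stood against 3 in *Nsd2* ΔIE, with 2 overlapping pairs. *Hdac7*, another class IIa enzyme, kept its place: 2 promoter peaks with 13022 bp in the control and 4 peaks with 11288 bp in the knockout (log2 ratio -0.21), 3 of which lay wholly inside those of *Nsd2* fl/fl. *Hdac9* had 8803 bp in 2 promoter peaks and 4359 bp in an intron (log2 ratio -1.01), and over its whole span, with peaks named for other genes, 12910 bp and 14679 bp. Its promoter peaks lay near the 5′ end of the span (5442 bp) and at the start of a shorter transcript far inside it (3361 bp). *Hdac5* had a promoter peak of 7979 bp in *Nsd2* fl/fl alone. *Hdac11*, the class IV enzyme, had 4922 bp before the gene in the control and 3265 bp in the knockout (log2 ratio -0.59). The knockout peak lay inside the gene span, over the start of a shorter listed transcript. The call was lost after centring (-0.27), and over the span of *Hdac11* 0 bp and 3265 bp were covered. *Hdac10* had no peak. Among the sirtuins, NAD-dependent deacetylases, *Sirt1* (3164 bp) and *Sirt6* (1998 bp) had peaks in *Nsd2* ΔIE alone and *Sirt7* had none.

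The 10 peaks of the 10 genes listed in *Nsd2* fl/fl alone had a median of 1.24 times the lowest signal of their list, and 3 were above 2 times, those of *Kmt2b*, *Kat5* and *Hdac5*. The 17 peaks of the 12 genes listed in *Nsd2* ΔIE alone had a median of 1.23 times, and 2 were above 2 times, in *Kdm6b* and *Kdm3b*. The medians were 1.33 and 1.35 for the histone modifiers listed in both libraries, and 1.25 and 1.24 over all peaks of the lists. For 4 of the 10 genes (*Kmt2b*, *Jarid2*, *Kat5* and *Hdac5*) and 6 of the 12 (*Kmt2a*, *Setd7*, *Prdm2*, *Kdm6b*, *Kat8* and *Hdac3*), the other library held a peak of another name within the gene span or the 3 kb before it. In all, 21 of the 39 genes shared their span with 24 such control peaks and 29 such knockout peaks. Such peaks were not counted over all genes with a peak, and the 39 genes were long (median span 42070 bp against 21237 bp). These counts are therefore not read as particular to the histone modifiers. The 21 genes without a peak have no position in the lists, so peaks of other names over them could not be seen. When every listed peak over the span was counted, 26 genes had a peak in both libraries and 16 had overlapping peaks, against 17 and 10 by name. No share of protein-coding genes was counted by span, so this rise is not read as particular to the histone modifiers. The 10 of 17 by name, 58.8%, compare with 64.5% of protein-coding genes with a peak in both.

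A further 90 histone modifier genes, among them subunits of the Polycomb, MLL and SET1 and deacetylase complexes and the enzymes left out above, were counted in the same way. Of these, 37 had a peak in *Nsd2* fl/fl (41.1% against 30.9% of protein-coding genes), 33 in *Nsd2* ΔIE (36.7% against 32.9%), 25 in both (27.8% against 20.4%) and 45 in neither (50% against 56.6%). Among those with a peak, 22 had less length in *Nsd2* ΔIE (48.9% against 43.8%) and 12 more (26.7% against 37.6%). A promoter peak was listed in both libraries in 14 genes, or 15.6%, against 8.33% of the 60 and 7.36% of protein-coding genes. *Sin3b*, a scaffold of the class I deacetylases, had 15182 bp and 3268 bp, and *Rcor2*, a partner of *Kdm1a*, 14371 bp and 9325 bp, all of it at the promoter. Of the MLL and SET1 complex subunits, *Paxip1*, a partner of *Kmt2d*, had 26174 bp and 21035 bp and *Cxxc1*, which binds unmethylated CpG, 3151 bp and 6056 bp. The demethylase *Hr* had 12003 bp and 8624 bp at its promoter. Of the Polycomb genes, the repressive complex 1 subunits *Kdm2b*, *Phc2* and *Cbx2* had 12005 bp, 13435 bp and 5852 bp in the control and 11343 bp, 7578 bp and 2532 bp in the knockout. The methyltransferases *Setd6* and *Setd4* had 4247 bp and 4993 bp against 4665 bp and 3392 bp, the acetyltransferases *Ncoa1* and *Naa40* 10175 bp and 4545 bp against 2403 bp and 4771 bp, and the mitochondrial sirtuin *Sirt3* 4564 bp against 6125 bp.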

How the data were processed

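H3K36me2 CUT&Tag of mouse colon was analysed from 2 deposited peak lists, 1 library for each genotype. The submitters' processing notes name Bowtie2, deepTools, SEACR and ChIPseeker without versions, and the build hg38, although the genes are mouse. Positions are printed as the lists give them, since their build is not given in the sources used here. For each peak the authors deposited a summed signal, the coverage added up over the region, with no stated scaling to depth, and they annotated its nearest transcript and feature. Libraries were not pooled. The number of reads is unknown, so depth sets no precision on a single peak.

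Peaks were assigned to genes by the deposited gene name. Covered lengths, overlaps of at least 1 bp and 95% Wilson intervals were computed with Python 3.11.15, pandas 2.3.3, numpy 2.4.6 and scipy 1.17.1. The functions were tested on simulated lists, which returned the class simulated for all 2000 genes. Of the 18187 listed genes, 17571 were named in the RefSeq gene table of GRCm38.p6, 9494 of them protein-coding, and that table served for names only. Promoter windows were matched to a listed transcript by the length from its start to the gene end, which 6 genes met, while 13 histone modifiers had no window. The span of a gene joins the transcripts that the lists name for it.

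The genes and lists were chosen with earlier results of these data known. By the rule for named genes, every gene with a peak in both libraries, promoter peaks of genes listed in 1 library, extremes of length, number and mean signal of peaks, and paralogs are given with values, and the further genes by class or example. Some values under this rule are not reported here. The alternatives are promoter peaks only, all peaks over the gene span, the strongest 50%, equal numbers of peaks, merging within 1 kb, a reciprocal overlap, centred ratios, a limit of 1, numbers of peaks and shares of signal.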

Additional observations from a re-analysis of the deposited data

How the results depend on the processing

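Of 87 values under alternatives, 59 stayed, 27 moved and 1 past the limit changed sign. *Prdm16* (-0.16) and *Hdac7* (-0.21), within the limit, also changed sign, *Prdm16* to 0.2 over the gene span and 0.16 after centring and *Hdac7* to 0.11 after centring. *Hdac11* had no control peak over its span and so no ratio there. With promoter peaks only, 15 genes had a peak in *Nsd2* fl/fl, 12 in *Nsd2* ΔIE, 5 in both and 38 in neither, 13 had less length and 8 more, and 4 overlapped. With all peaks over the gene span, 26 had a peak in both and 16 overlapped, and *Hdac9* turned from -1.01 to 0.19, because peaks named for other genes were added. With the strongest 50% of each list, 16 had a peak in *Nsd2* fl/fl, 18 in *Nsd2* ΔIE, 9 in both and 35 in neither, and 5 overlapped. In that setting 13 had less length and 11 more, a share of less of 54.2% (protein-coding genes 52.7%). Among genes with a peak in both, 10 had less length and 3 more, since genes listed in 1 library were left out. Under a reciprocal overlap of 50%, 6 genes overlapped. Under these alternatives no share of protein-coding genes was counted for overlaps, for peaks over the gene span or for peaks among the strongest 50%. Those changes are therefore not read as particular to the histone modifiers. *Ehmt1* moved from 1.3 to 0.06 and *Dot1l* from 0.53 to 0.01 over the gene span. Equal numbers of peaks and merging moved no count by over 1.5 times. The share of less among less and more was 57.1% (protein-coding genes 53.8%), 50% after centring (47%) and by shares of signal (48.5%), 60% with equal numbers of peaks (59.1%) and 61.9% with promoter peaks only (56.2%).

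No paired analysis was possible because 1 library stands for each genotype, and leaving out a library was not possible. The lists hold only regions above a limit, so a gene without a peak is one with no region above it. The cause of the changes not explained above was not tested.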

Other observations

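The 17 histone modifiers with a peak in both libraries were spread over role groups. The class II and IV deacetylases and the group of H3K79, H4K20 and other methyltransferases gave 4 each, the demethylases 4, the H3K9 methyltransferases 3, and the H3K4 methyltransferases and the acetyltransferases 1 each. The PRC2 genes, the class I deacetylases and the sirtuins, with 5, 3 and 3 genes, gave none, with intervals up to 43.4%, 56.1% and 56.1% that hold the 20.4% of protein-coding genes. Among the further genes, 13 of the 26 other subunits of the Polycomb complexes had a peak in *Nsd2* fl/fl, 10 in *Nsd2* ΔIE and 8 in both (50%, 38.5% and 30.8% against 30.9%, 32.9% and 20.4%), 9 of the 15 with a peak with less and 3 with more length (against 43.8% and 37.6%). Of these, *Cbx7*, a reader of H3K27 methylation in the repressive complex 1, had 17654 bp in 3 peaks and 7183 bp in 1. Of the 10 other demethylases, 8 had no peak in either library (80%, 49% to 94.3%, against 56.6% of protein-coding genes), among them *Kdm6a*, the X-linked paralog of *Kdm6b*.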
